A study of Homo sapiens with 12 samples.

Results

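The genes described here encode the heterogeneous nuclear ribonucleoproteins (hnRNPs) and the numbered RBM (RNA-binding motif) proteins of a human cell line. They were taken from the gene table by symbol: HNRNP followed by letters or digits, or RBM followed by a digit, with no pseudogene suffix. RBM5 was left out by name, as was any symbol opening with RBM5 and a hyphen. A member also needed at least 10 estimated counts in 3 or more of the 12 libraries. Of the 64 symbols left, 57 reached that level among the 36459 symbols of the table, 22 of them HNRNP and 35 RBM. No fold change was used to choose them, though earlier results of these data were known. The 7 symbols below it were HNRNPCL1, HNRNPCL2, HNRNPCL3, HNRNPCL4, RBM8B, RBM44 and RBM46. RBM44 came nearest, with a highest count of 7 in any library, followed by RBM46 with 4 and HNRNPCL2 with 1, and the other 4 were at 0 in all 12 libraries. Symbols that the choice leaves out are not analysed here. A pair of members, HNRNPUL2-BSCL2 and RBM14-RBM4, are readthrough genes that join neighbouring loci. All 57 members passed the filter on low counts and were tested among 14209 genes.

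The cells were HEK293, an established line derived from human embryonic kidney. The design had 4 groups of 3 RNA-seq libraries: vehicle, the monounsaturated fatty acid oleic acid, FAC (ferric ammonium citrate, which supplies iron), and oleic acid + FAC. The study asked how oleic acid bears on ferroptosis, an iron-dependent death by lipid peroxidation, set off by FAC. The sources used here give no dose or exposure time, and a control for the ammonium and citrate of the salt was not among the groups. The labels do not say that the 3 libraries of a group came from separate cultures, so p-values measure the spread between these libraries, which may be technical. In bulk RNA, fewer cells that hold a transcript and less of it per cell cannot be told apart.

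As background, hnRNPs coat nascent transcripts in the nucleus and steer splicing, polyadenylation, export and stability, often by silencing the exons they bind. The numbered RBM proteins share an RNA recognition motif or a related fold rather than a single task: some sit in the spliceosome or choose splice sites, others act in m6A methylation, exon junction marking, nuclear RNA decay or ribosome assembly. Several genes of both families carry alternative exons that end translation early, through which their proteins are known to limit their own mRNA by nonsense-mediated decay.

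Some members that changed with FAC are shown first by the DNA upstream of their start sites. The stretches below are the parts of the 250 bases before the RefSeq start site (GRCh38.p14) that hold no annotated exon of GENCODE release 29, printed 5′ to 3′ on the strand of the gene. Capitals mark a CCAAT box (CCAAT, or ATTGG where it lies on the opposite strand) or an ETS core (CCGGAAGT, or ACTTCCGG on the opposite strand). RBM4B, RBM12, RBM14, RBM38 and RBM28 fell with FAC and HNRNPL rose. The stretch of RBM4B lies at chr11:66677922-66678137 on the minus strand, RBM12 at chr20:35664957-35665150 on the minus strand, RBM14 at chr11:66616380-66616581 on the plus strand, RBM38 at chr20:57391146-57391395 on the plus strand, RBM28 at chr7:128343909-128344080 on the minus strand and HNRNPL at chr19:38852348-38852597 on the minus strand.
RBM4B: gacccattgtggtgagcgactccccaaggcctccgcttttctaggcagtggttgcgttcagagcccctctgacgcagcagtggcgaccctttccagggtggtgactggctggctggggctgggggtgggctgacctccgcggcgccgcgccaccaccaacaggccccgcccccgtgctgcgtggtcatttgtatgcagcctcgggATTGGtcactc
RBM12: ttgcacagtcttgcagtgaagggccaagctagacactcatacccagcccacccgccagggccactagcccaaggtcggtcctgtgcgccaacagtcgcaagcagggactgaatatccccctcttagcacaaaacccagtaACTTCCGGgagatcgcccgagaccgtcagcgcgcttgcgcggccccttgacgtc
RBM14: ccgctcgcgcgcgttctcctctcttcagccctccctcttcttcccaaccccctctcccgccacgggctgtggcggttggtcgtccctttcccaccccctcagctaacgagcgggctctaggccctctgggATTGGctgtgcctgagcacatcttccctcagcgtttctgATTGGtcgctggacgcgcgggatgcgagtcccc
RBM38: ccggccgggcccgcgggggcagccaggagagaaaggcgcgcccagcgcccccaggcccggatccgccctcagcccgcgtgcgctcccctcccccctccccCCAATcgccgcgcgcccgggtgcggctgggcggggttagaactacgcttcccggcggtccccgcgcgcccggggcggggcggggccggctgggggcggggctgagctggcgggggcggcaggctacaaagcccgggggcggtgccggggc
RBM28: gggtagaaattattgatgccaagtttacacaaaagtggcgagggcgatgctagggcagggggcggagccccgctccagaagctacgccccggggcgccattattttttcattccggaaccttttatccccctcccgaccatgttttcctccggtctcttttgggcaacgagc
HNRNPL: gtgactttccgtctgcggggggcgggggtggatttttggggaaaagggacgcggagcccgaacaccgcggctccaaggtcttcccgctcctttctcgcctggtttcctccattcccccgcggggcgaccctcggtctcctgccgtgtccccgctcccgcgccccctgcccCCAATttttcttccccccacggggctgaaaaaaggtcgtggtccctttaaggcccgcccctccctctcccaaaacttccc
The ETS core occurred in the RBM12 stretch alone of these, the CCAAT box in those of RBM4B, RBM14, RBM38 and HNRNPL, and neither in that of RBM28. Over the whole 250 bases, 52 members had a RefSeq promoter, and 59.6% of them held CCAAT on either strand, against 33.04% of 27305 promoters. A GC box (GGGCGG) was found in 67.3% of member promoters against 42.31% of all, an ETS core in 9.6% against 3.64%, and an E-box (CACGTG) in 17.3% against 6.49%. Member promoters were also richer in G and C, with a median of 65.6% against 58.0%, and the motif shares were not matched for it. They were not matched for expression either, since the 27305 promoters were not limited to the genes tested. The 52 are not all distinct: RBM14 and RBM14-RBM4 have the same window, and those of HNRNPUL2 and HNRNPUL2-BSCL2 overlap. TATAAA was held by 9.6% of member promoters and 11.13% of all, a heat shock pair TTCNNGAA by 11.5% and 6.72%, the YY1 core AAGATGGCG by 1.9% and 0.64%, and the NRF1 core by 1.9% and 1.13%. The sterol element core TCACCCCAC was in no member promoter and in 0.35% of all. Each motif was searched on both strands without regard to overlap with another, and a match describes letters, not a bound site.

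The library totals ran from 14098216 to 18717397 estimated counts, so that 3 counts correspond to 0.158 to 0.224 CPM (counts per library total, put on one scale with TMM factors). Library 3 of oleic acid and library 3 of oleic acid + FAC stood apart (called the 2 divergent libraries from here on). The correlation of a gene's deviation from its group mean with its transcript length was -0.52 and -0.39 there, against -0.23 to 0.36 in the other 10. Deviations within a group offset one another, so a negative value in a library goes with positive values in the rest of its group. The divergent library with both agents carried 12.1% mitochondrial counts, against 3.33% to 7.50% elsewhere. TFRC, the transferrin receptor whose mRNA is destabilised when iron is plentiful, served as a check of the FAC label. It measured 113, 134 and 119 CPM with vehicle, 130.2, 122 and 57.8 with oleic acid, 19.7, 22.1 and 16.8 with FAC and 16.3, 14.0 and 13.3 with both, so every FAC library was below every other one. The 5 HEK293 markers summed to 176.4 to 274.4 CPM over all groups, and all were detected. The defining markers of blood and liver cells summed to at most 2.93 and 0.454 CPM, and HBB was at 0 in every library. Endothelial markers summed to 1.21 to 2.58 CPM, fibroblast markers to 9.56 to 18.6 CPM and epithelial markers to 134.9 to 289.5 CPM, with the highest epithelial sums in the oleic acid + FAC group (192.2 to 289.5 CPM).

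Levels between genes were compared per length, in TPM (transcripts scaled to a fixed total after division by length), in vehicle. HNRNPA1, which silences exons and shuttles to the cytoplasm, stood highest at 3068 ± 194 TPM (SD, n = 3). Its close relative HNRNPA2B1 followed at 1765 ± 97.9 TPM, the U-tract binder HNRNPC at 1207 ± 44.4, the poly-C binder HNRNPK at 997 ± 26.2, and HNRNPD, which binds AU-rich mRNAs, at 721 ± 27.0. These 5 neighbours each differed by more than their spreads. HNRNPU, a nuclear scaffold protein, at 577 ± 60.5 and HNRNPL, which binds CA repeats, at 545 ± 44.6 did not. The most abundant RBM member was RBM3, a cold-inducible protein, at 482 ± 17.0 TPM, within the spread of HNRNPDL at 466 ± 21.5, with HNRNPM next at 430.1 ± 35.7. At the low end stood RBM20, the regulator of titin splicing in heart muscle, at 5.31 ± 0.816 TPM, the muscle splicing factor RBM24 at 3.55 ± 0.657, RBM47 at 3.29 ± 0.0837, RBM14-RBM4 at 1.03 ± 0.340 and RBM43 at 0.714 ± 0.274.

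FAC moved a minority of the members, and in both directions. Averaged over both media, that is, the mean of FAC against vehicle and oleic acid + FAC against oleic acid (6 libraries with FAC, 6 without), 11 of 57 members passed an edgeR quasi-likelihood adjusted p of 0.05. Over all genes tested 8.76% passed. RBM4B, RBM12, RBM10, RBM12B, RBM28, RBM38 and RBM14 fell (7 members, where 5.48% of all genes fell), and RBM25, RBM39, RBM15 and HNRNPL rose (4 members, where 3.27% of all genes rose). The falls reached -0.90 on the log2 scale and the rises 0.41. The median change of the members was 0.07 and that of all genes 0.00, and 36 of the 57 point estimates were above 0 (50.7% of all genes). The falls were all among RBM genes, and HNRNPL was the 1 hnRNP past the test. In 5 of the members (RBM4B, RBM12, RBM10, RBM38 and RBM14) all 6 FAC libraries lay below all 6 others, where 4.04% of all genes did so. In 3 (RBM25, RBM39 and HNRNPK) all 6 lay above, where 2.8% did. With the dependence on transcript length removed from each library the count was 21 (11 higher, 10 lower), and with DESeq2 it was 16 (8 and 8). The number of all genes called rose as well, from 1244 to 2281 and 1835 in that order.

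**Figure D1:**
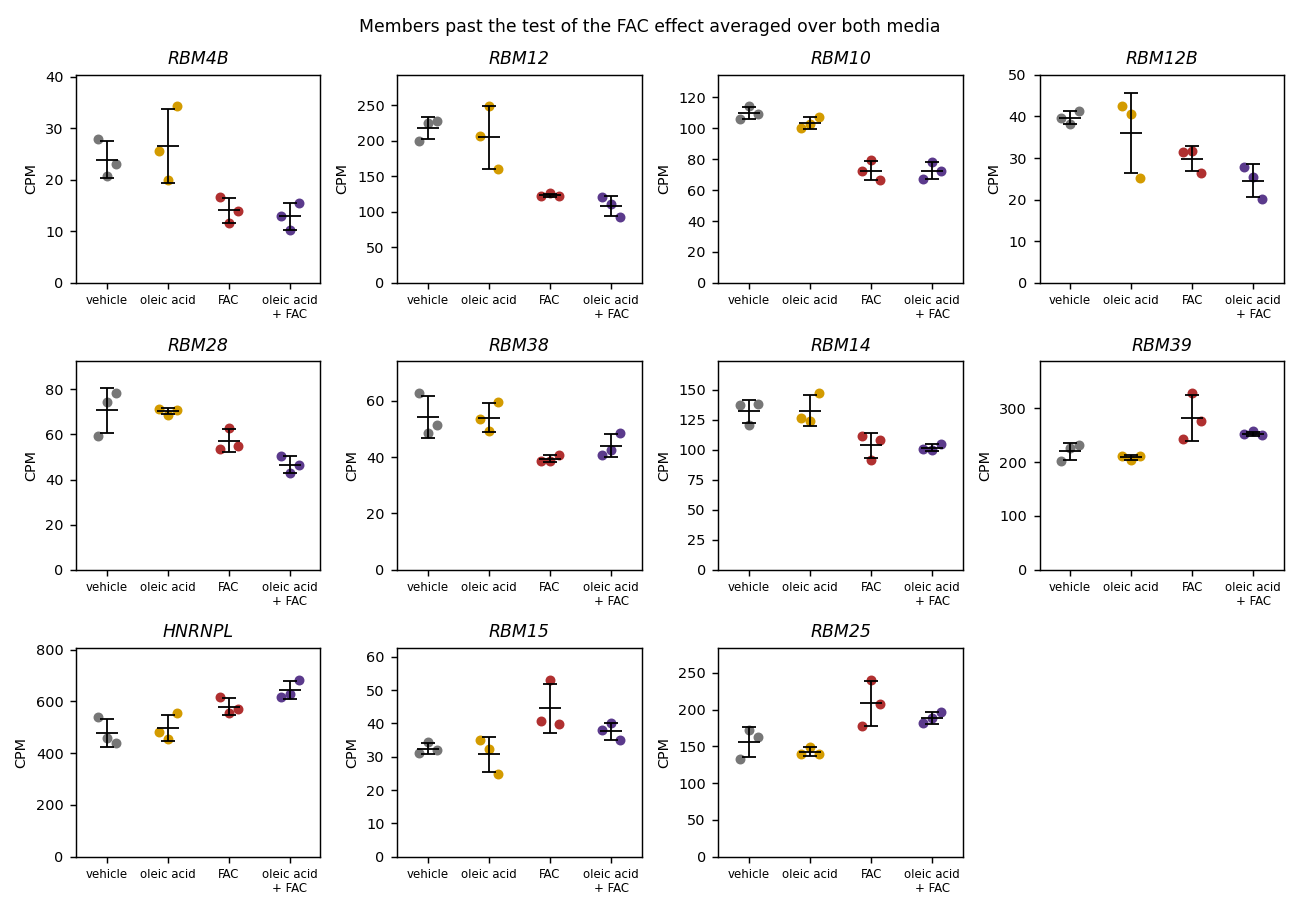
CPM (linear axis from 0) of the members past the test in the averaged FAC comparison, 1 panel per gene, with a point for each of the 3 libraries of a group and black bars for the group mean ± SD. In RBM4B, RBM12, RBM10, RBM38 and RBM14 the 6 FAC libraries lie below the 6 others.

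RBM12, RBM10 and RBM4B had the largest falls of the members past the test. RBM12 (chr20:35648925-35664956, minus strand) encodes a nuclear protein with several RNA recognition motifs. RBM12 measured 199.6, 226 and 228 CPM in the vehicle libraries and 206, 249 and 160.4 CPM with oleic acid alone. With FAC, RBM12 measured 122, 126 and 122 CPM, and with both agents 120.4, 111 and 92.2 CPM. All 6 FAC libraries were below the lowest of the others. The SD was 2.06 CPM with FAC alone and 14.4 CPM with both agents, beside 15.6 CPM with vehicle. The FAC effect averaged over media was -0.87 (SE 0.11, edgeR adjusted p = 0.000452), or 0.546 of the level without FAC. RBM12 shares 575 exon bases, 8.6% of its own, with CPNE1 on the same strand, whose averaged change was 0.17 (SE 0.11, edgeR adjusted p = 0.381).

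RBM10 (chrX:47144869-47186813, plus strand) promotes exon skipping, and its loss causes a developmental syndrome. RBM10 measured 106, 114 and 109 CPM in the vehicle libraries and 100.3, 103 and 108 CPM with oleic acid alone. With FAC, RBM10 measured 72.4, 79.2 and 66.4 CPM, and with both agents 67.1, 78.1 and 72.1 CPM. The groups with and without FAC did not overlap, and the 6 FAC libraries were alike in both media. The averaged change was -0.56 (SE 0.07, edgeR adjusted p = 0.000697), a ratio of 0.680. RBM4B (chr11:66664998-66677921, minus strand) and its neighbour RBM4 are paralogues that act on alternative splice sites. RBM4B measured 27.9, 20.8 and 23.0 CPM in the vehicle libraries and 25.6, 20.0 and 34.3 CPM with oleic acid alone. With FAC, RBM4B measured 16.6, 11.6 and 14.0 CPM, and with both agents 13.0, 10.3 and 15.5 CPM. Every FAC library was again below every other one. Over both media the mean change was -0.90 (SE 0.15, edgeR adjusted p = 0.00314), a ratio of 0.535. For RBM4 the averaged change was -0.09 (SE 0.08, edgeR adjusted p = 0.549). RBM4 measured 138, 132 and 137 CPM with vehicle, 125, 131 and 162 with oleic acid, 129, 123 and 127 with FAC and 125, 138 and 135 with both, with overlapping groups. The log2 ratio of RBM4B to RBM4 CPM lay between -2.71 and -2.24 without FAC and between -3.74 and -2.96 with it. The exons of this pair overlap by 590 bases on opposite strands (13.6% of RBM4B), and since their sequences are alike and the strand setting of the counting is not given, reads may have been split between them.

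Another 4 members fell by less. RBM28 (chr7:128297685-128343908, minus strand) encodes a nucleolar protein needed for the large ribosomal subunit. RBM28 measured 59.4, 74.3 and 78.3 CPM in the vehicle libraries and 71.5, 68.8 and 70.9 CPM with oleic acid alone. With FAC, RBM28 measured 53.5, 63.0 and 55.0 CPM, and with both agents 50.6, 43.1 and 46.3 CPM. The FAC group overlapped the vehicle group, since 63.0 CPM with FAC exceeded 59.4 CPM with vehicle, while all 3 libraries with both agents were below the rest. Its averaged change was -0.45 (SE 0.09, edgeR adjusted p = 0.00645). RBM38 (chr20:57391407-57409333, plus strand), a p53 target that binds AU-rich and U-rich mRNAs, also fell. RBM38 measured 62.8, 48.7 and 51.5 CPM in the vehicle libraries and 53.4, 49.4 and 59.5 CPM with oleic acid alone. With FAC, RBM38 measured 38.8, 38.7 and 40.9 CPM, and with both agents 40.9, 42.6 and 48.6 CPM. The highest FAC library (48.6 CPM) lay just under the lowest library without FAC (48.7 CPM). The FAC effect averaged over media was -0.38 (SE 0.09, edgeR adjusted p = 0.0173).

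RBM14 (chr11:66616582-66627347, plus strand), a paraspeckle protein and transcriptional coactivator, fell by a similar amount. RBM14 measured 137, 121 and 138 CPM in the vehicle libraries and 126, 124 and 147 CPM with oleic acid alone. With FAC, RBM14 measured 111, 91.8 and 108 CPM, and with both agents 100.3, 99.5 and 105 CPM. The FAC libraries all lay below the others. The averaged change was -0.36 (SE 0.08, edgeR adjusted p = 0.0133). RBM12B, a relative of RBM12, gave 39.7, 38.2 and 41.4 CPM with vehicle and 42.4, 40.6 and 25.1 with oleic acid. With FAC it gave 31.4, 31.8 and 26.4 CPM, and 27.9, 25.5 and 20.2 with both agents. The divergent oleic acid library was lower than 5 of the 6 FAC libraries, and the other 5 libraries without FAC were above all 6. Over both media the mean change was -0.48 (SE 0.13, edgeR adjusted p = 0.0344). It missed the threshold in 10 of the 12 fits that left out 1 library each, with adjusted p up to 0.0941, and passed without oleic acid library 3 or oleic acid + FAC library 1.

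Of the members that rose, RBM25 and RBM39 work with the early spliceosome. RBM25 (chr14:73058436-73123898, plus strand) joins the U1 particle and favours certain 5′ splice sites. RBM25 measured 133, 172 and 162 CPM in the vehicle libraries and 140.1, 149.6 and 139 CPM with oleic acid alone. With FAC, RBM25 measured 178, 240.2 and 207 CPM, and with both agents 181, 188 and 197 CPM. Its lowest FAC library was above its highest library without FAC. Its averaged change was 0.41 (SE 0.09, edgeR adjusted p = 0.0146), a ratio of 1.33. RBM39 (chr20:35701347-35742312, minus strand), a U2AF-like splicing factor that aryl sulfonamide drugs degrade, followed. RBM39 measured 202, 226 and 232 CPM in the vehicle libraries and 211, 204 and 211 CPM with oleic acid alone. With FAC, RBM39 measured 243, 328 and 277 CPM, and with both agents 252, 257 and 249.9 CPM. Again no FAC library was as low as any of the others. The FAC effect averaged over media was 0.32 (SE 0.08, edgeR adjusted p = 0.0301).

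RBM15 (chr1:110338506-110346681, plus strand) brings the m6A writer complex to its RNA targets. RBM15 measured 31.0, 34.4 and 31.9 CPM in the vehicle libraries and 35.1, 32.4 and 24.9 CPM with oleic acid alone. With FAC, RBM15 measured 40.6, 53.1 and 39.9 CPM, and with both agents 38.2, 40.0 and 34.9 CPM. Library 3 with both agents (34.9 CPM) fell within the range of the libraries without FAC, and 5 of 6 FAC libraries were above all of those. The averaged change was 0.37 (SE 0.10, edgeR adjusted p = 0.0411). HNRNPL (chr19:38836388-38852347, minus strand) was the hnRNP past the test. HNRNPL measured 539, 457 and 439.7 CPM in the vehicle libraries and 483, 455 and 554 CPM with oleic acid alone. With FAC, HNRNPL measured 616, 554 and 569 CPM, and with both agents 617, 631 and 683 CPM. Oleic acid library 3 (554 CPM) was level with FAC library 2. Over both media the mean change was 0.32 (SE 0.09, edgeR adjusted p = 0.0329). Calls for RBM39, RBM15 and HNRNPL were near the threshold. RBM39 passed in 3 of the 12 fits that left out 1 library, those without FAC library 1 or either divergent library, with adjusted p up to 0.0728 otherwise. RBM15 passed in 3, those without oleic acid library 1 or either divergent library, with adjusted p up to 0.1. HNRNPL passed in 4, those without library 1 of vehicle or of oleic acid + FAC, FAC library 2 or oleic acid library 3, with adjusted p up to 0.0947. RBM39 and HNRNPL also missed it when no filter on low counts was used. The other 7 members, RBM12B apart, passed in all 12. Exons of RBM10 (16.4% of its bases, with NDUFB11), RBM12B (28.5%, with FAM92A) and RBM38 (12.6%, with AL109955.1) overlap genes on the opposite strand, whose reads cannot be told apart without strand. NDUFB11 was at 0.22 (SE 0.15, edgeR adjusted p = 0.396) and FAM92A at 0.12 (SE 0.17, edgeR adjusted p = 0.720). On the same strand, RBM14 shares 432 exon bases with RBM14-RBM4, and HNRNPL 561 with AC008982.1.

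The hnRNPs as a class had small upward point estimates with FAC. Of 21 hnRNP members, readthrough gene left out, 1 rose and none fell in the averaged comparison, beside 3.27% of all genes that rose and 5.48% that fell, so that the count of calls is near the background. In this class 17 point estimates were above 0 (50.7% of all genes), and the median was 0.19 where that of all genes was 0.00. In the parts of that comparison that share no library the medians were 0.15 (FAC against vehicle) and 0.24 (oleic acid + FAC against oleic acid). HNRNPK came closest to the threshold of the rest. HNRNPK measured 1187, 1139 and 1199 CPM in the vehicle libraries and 1078, 1169.6 and 1282 CPM with oleic acid alone. With FAC, HNRNPK measured 1321, 1313 and 1519 CPM, and with both agents 1414, 1459.5 and 1557 CPM. All 6 FAC libraries were above all others, and the averaged change was 0.28 (SE 0.08, edgeR adjusted p = 0.0535). HNRNPK passed with DESeq2, with limma-voom, with replicate number as a block, with the length trend removed and without the 2 divergent libraries, but not with DESeq2-type size factors in edgeR or without the filter, and of the 12 fits lacking 1 library only in that lacking oleic acid library 3. HNRNPA2B1, which sorts RNAs for transport, gave 1633, 1582 and 1745 CPM with vehicle, 1606, 1523 and 2201 with oleic acid, 1934, 1870.1 and 2289 with FAC and 2051, 2055 and 3161 with both. Its divergent oleic acid library was above 4 of the 6 FAC libraries, and the averaged change was 0.37 (SE 0.14, edgeR adjusted p = 0.113). The number of hnRNPs called depended on the setting, as did that of all genes. HNRNPA2B1 passed with DESeq2, the block, the length trend removed and the 2 divergent libraries left out. The block also called HNRNPA3, HNRNPH2 and HNRNPH3 higher and HNRNPA1L2 lower, and DESeq2 called HNRNPH2 and HNRNPLL higher. With the length trend removed HNRNPC, HNRNPF, HNRNPH2 and HNRNPLL were called higher and HNRNPA1L2 lower.

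HNRNPA1 gave 2471, 2607 and 2480.1 CPM with vehicle and 2176, 2655 and 3414 with oleic acid. With FAC, HNRNPA1 gave 2510.1, 2776 and 3159 CPM, and 2674, 3500.0 and 4623 with both agents. The groups overlapped, and library 3 was the highest of its group in all but the vehicle group. Its averaged change was 0.27 (SE 0.15, edgeR adjusted p = 0.276). Summed over 22 hnRNP members the level was 13433, 13560 and 13909 CPM with vehicle, 12681, 13548 and 16665 with oleic acid, 14276, 14403 and 16583 with FAC, and 14775, 16291 and 20850 with both. Library 3 of oleic acid + FAC was the highest of the 12 for 14 of these 22 members, and library 3 of oleic acid for 3. These are the 2 divergent libraries, and their part in the sums was not tested. Without both, the median of the 22 hnRNP members, readthrough gene included, was 0.19 in the averaged comparison, with 17 above 0. Without library 3 of oleic acid + FAC alone that median was 0.11. With all 12 libraries the readthrough gene HNRNPUL2-BSCL2 was at 0.09 (SE 0.16). Other abundant hnRNPs had averaged log2 changes of 0.25 (SE 0.13, HNRNPC), 0.22 (SE 0.15, HNRNPD), 0.13 (SE 0.12, HNRNPDL), 0.10 (SE 0.07, HNRNPR), 0.07 (SE 0.08, HNRNPH1), 0.01 (SE 0.11, HNRNPU) and -0.05 (SE 0.08, HNRNPM), none past the test in the edgeR fit of all 12 libraries. HNRNPA1L2, an intronless relative of HNRNPA1 whose reads are hard to tell from it, was the lowest hnRNP at -0.50 (SE 0.20, edgeR adjusted p = 0.141).

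**Figure D2:**
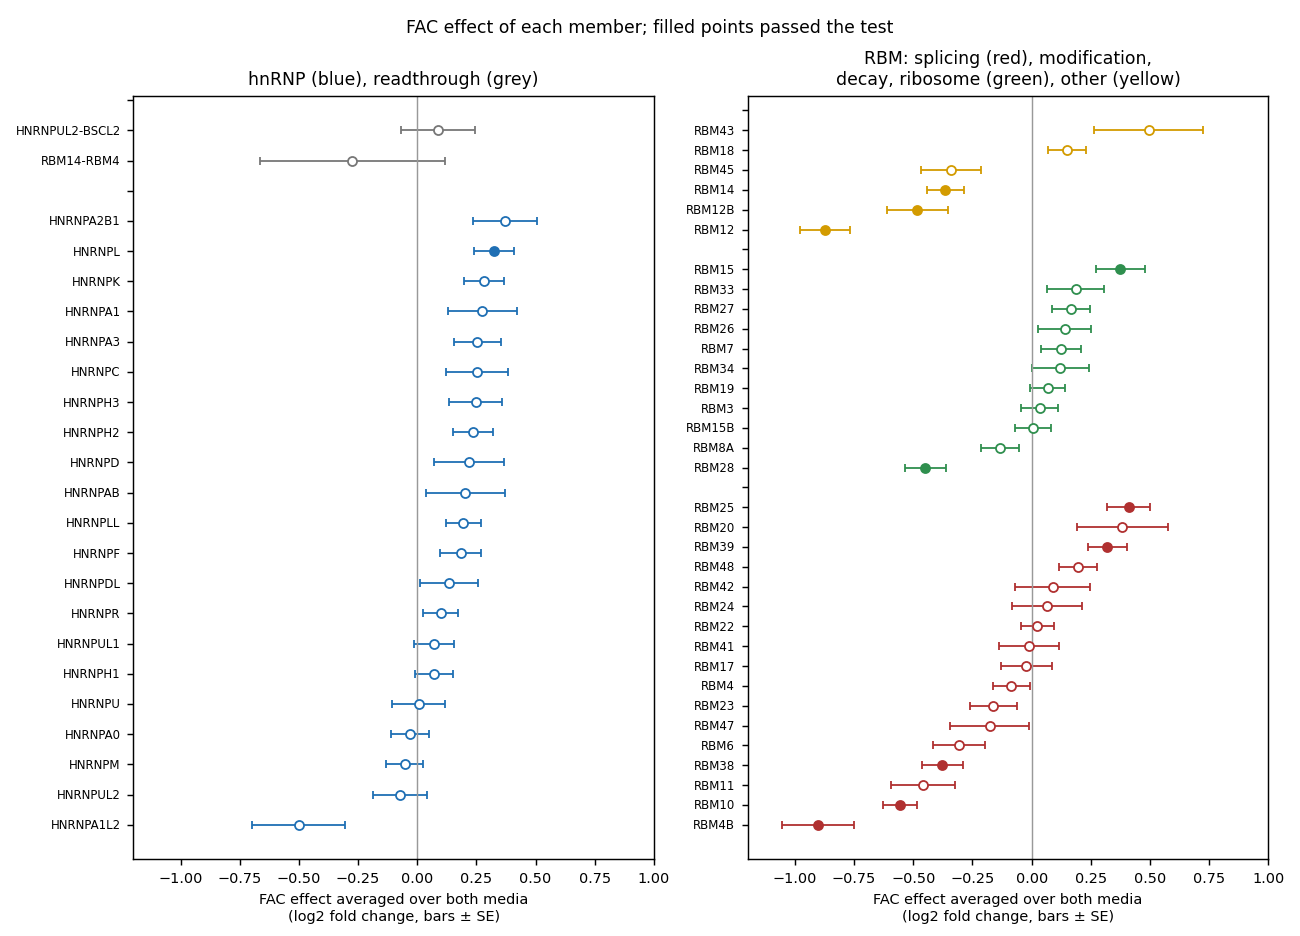
Averaged log2 change with FAC for each of the 57 members, by class, with 1 point per gene, filled points past an adjusted p of 0.05 and bars of 1 SE. The hnRNP median lies at 0.19, and the largest falls (RBM4B at -0.90, RBM12 at -0.87) are RBM genes.

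The RBM members are given by class, beside 3.27% of all genes that rose and 5.48% that fell, and differences between classes were not tested. Of 17 members that act with the spliceosome or in splice site choice, 2 rose (RBM25, RBM39) and 3 fell (RBM4B, RBM10, RBM38), with a median of -0.02. RBM11, a tissue-specific splicing factor, missed the threshold at -0.46 (SE 0.13, edgeR adjusted p = 0.0502) and passed with DESeq2, limma-voom, the block and the length trend removed, and RBM6 was at -0.31 (SE 0.11, edgeR adjusted p = 0.109). Of 11 members in RNA modification, decay, export, junction marking or ribosome making, RBM15 rose and RBM28 fell, 9 point estimates were above 0 (50.7% of all genes), and the median was 0.12. RBM3, the cold-inducible protein, was at 0.03 (SE 0.08, edgeR adjusted p = 0.834), and RBM8A, the Y14 subunit of the exon junction complex, at -0.13 (SE 0.08, edgeR adjusted p = 0.327). Of the 6 remaining RBM members, 3 fell (RBM12, RBM12B, RBM14), and the median was -0.35. RBM45 was at -0.34 (SE 0.13, edgeR adjusted p = 0.120). The median change of all genes was 0.00 throughout. RBM20 was at 0.38 (SE 0.19, edgeR adjusted p = 0.250).

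**Figure D3:**
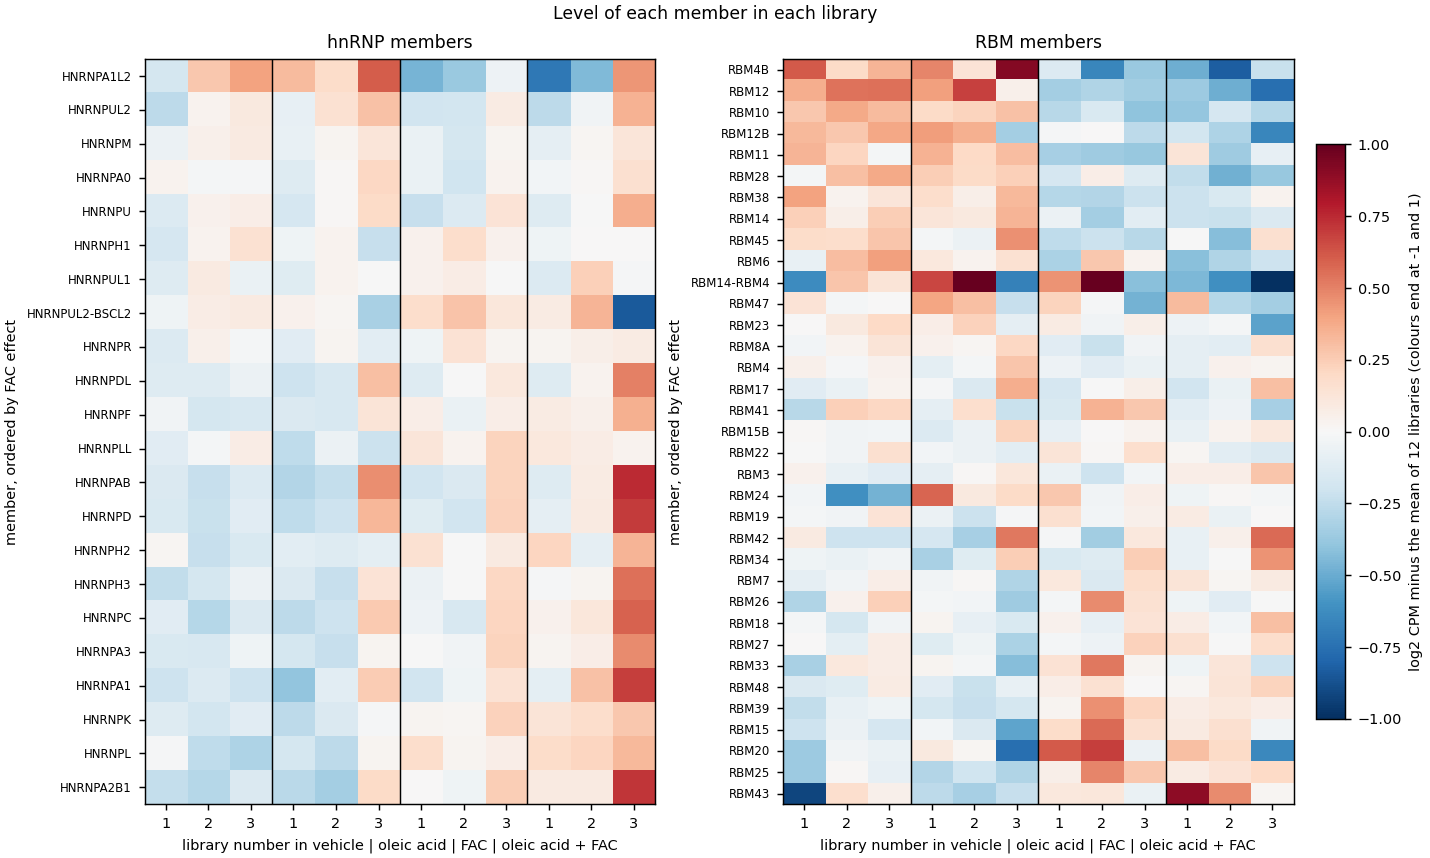
Heat map of all 57 members (rows) in the 12 libraries (columns), coloured by log2 CPM minus the mean of the gene over the 12 libraries. RBM12, RBM10 and RBM4B are low in all 6 FAC columns, and many hnRNP rows are highest in oleic acid + FAC library 3.

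FAC without oleic acid lowered RBM10 and RBM12. In FAC against vehicle these 2 of 57 members passed (1.19% of all genes did, and 0.732% fell), at -0.60 (SE 0.10, edgeR adjusted p = 0.0152) and -0.82 (SE 0.15, edgeR adjusted p = 0.0209), and 15 members had an unadjusted p under 0.05, as did 12.1% of all genes. RBM4B was at -0.77 (SE 0.21, edgeR adjusted p = 0.117), RBM38 at -0.46 (SE 0.12, edgeR adjusted p = 0.102), RBM14 at -0.35 (SE 0.11, edgeR adjusted p = 0.187) and RBM28 at -0.31 (SE 0.12, edgeR adjusted p = 0.313). RBM11 was at -0.54 (SE 0.19, edgeR adjusted p = 0.234). The upward estimates included RBM14-RBM4 at 0.77 (SE 0.54, edgeR adjusted p = 0.671), RBM20 at 0.60 (SE 0.27, edgeR adjusted p = 0.398), RBM24 at 0.45 (SE 0.21, edgeR adjusted p = 0.412), RBM15 at 0.46 (SE 0.15, edgeR adjusted p = 0.182), RBM25 at 0.42 (SE 0.13, edgeR adjusted p = 0.160) and RBM39 at 0.36 (SE 0.12, edgeR adjusted p = 0.186). When single libraries were left out, RBM10 passed only in the fits lacking vehicle library 1 or FAC library 2, and RBM12 only in that lacking vehicle library 1, with adjusted p up to 0.0921 and 0.108 without the others. The 2 divergent libraries belong to neither group compared here and enter through the shared spread, the scaling and the filter. Without these 2 libraries, 6 members passed. Of all genes 672 then passed, against 169 with all 12 libraries.

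In oleic acid medium, FAC lowered RBM12, RBM4B, RBM28 and RBM10. These 4 of 57 members passed in oleic acid + FAC against oleic acid (2.21% of all genes did, and 1.45% fell), and 20 had an unadjusted p under 0.05, as did 16.1% of all genes. The changes were -0.93 (SE 0.15, edgeR adjusted p = 0.00942) for RBM12, -1.04 (SE 0.22, edgeR adjusted p = 0.0276) for RBM4B, -0.59 (SE 0.12, edgeR adjusted p = 0.0268) for RBM28 and -0.51 (SE 0.10, edgeR adjusted p = 0.0237) for RBM10. RBM12B was at -0.56 (SE 0.18, edgeR adjusted p = 0.147), RBM14 at -0.38 (SE 0.11, edgeR adjusted p = 0.102) and RBM38 at -0.30 (SE 0.12, edgeR adjusted p = 0.257). The highest estimate was that of the scarce RBM43, at 0.78 (SE 0.33, edgeR adjusted p = 0.259). It was followed by HNRNPA2B1 at 0.45 (SE 0.19, edgeR adjusted p = 0.276) and RBM25 at 0.40 (SE 0.13, edgeR adjusted p = 0.138). Next came HNRNPA1 at 0.39 (SE 0.21, edgeR adjusted p = 0.379) and HNRNPL at 0.37 (SE 0.12, edgeR adjusted p = 0.143). Estimates below these included HNRNPK at 0.33 (SE 0.12, edgeR adjusted p = 0.192) and HNRNPA3 at 0.33 (SE 0.14, edgeR adjusted p = 0.284). HNRNPC was at 0.32 (SE 0.18, edgeR adjusted p = 0.421) and HNRNPD at 0.29 (SE 0.21, edgeR adjusted p = 0.527). RBM15 was at 0.29 (SE 0.15, edgeR adjusted p = 0.360) and RBM39 at 0.28 (SE 0.12, edgeR adjusted p = 0.263). With replicate number as a block, 6 members passed, RBM14 and RBM25 being added, and 740 of all genes did. With only the 6 libraries of this comparison in the fit none did by edgeR, with 12 at an unadjusted p under 0.05. Of all genes 19 passed in that fit. Leaving out 1 library, RBM12 passed in 5 of 6 fits (not without oleic acid + FAC library 2) and RBM4B in 3 (not without oleic acid library 1 or oleic acid + FAC library 1 or 2). RBM10 and RBM28 passed in 1, without oleic acid library 3, and their adjusted p reached 0.0797 and 0.122.

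The FAC effects in the 2 media come from separate libraries. Over the 57 members, 49 had the same sign in both, where 74.2% of all genes did. The Pearson correlation across members was 0.546 (n = 57 genes, which share libraries and are not independent), against 0.453 across all genes. The member correlation was 0.827 without RBM14-RBM4, whose few reads gave 0.77 (SE 0.54) in 1 medium and -1.32 (SE 0.57) in the other. No tested gene was left out of the value across all genes, so 0.827 has no like value beside it. The test of the difference between media found none of 57 members (0% of all genes), with 2 at an unadjusted p under 0.05, RBM14-RBM4 and RBM24 (0.816% of all genes), and DESeq2 and limma-voom also found 0. RBM24 had the lowest difference of well-counted members at -0.78 (SE 0.29, edgeR adjusted p = 1.0), followed by RBM20 at -0.43 (SE 0.38, edgeR adjusted p = 1.0), RBM28 at -0.29 (SE 0.17, edgeR adjusted p = 1.0) and RBM4B at -0.28 (SE 0.30, edgeR adjusted p = 1.0). RBM45 at 0.24 (SE 0.25) and HNRNPA1 at 0.23 (SE 0.29) were highest of the well-counted members, and a scarcer RBM member reached 0.58.

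**Figure D4:**
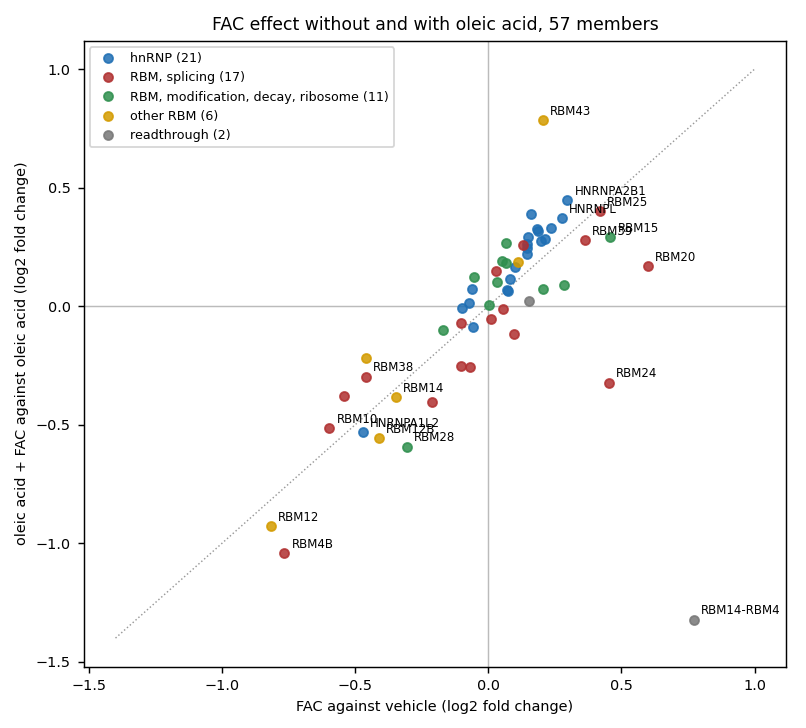
Log2 change with FAC in oleic acid medium (vertical) against that without oleic acid (horizontal) for the 57 members, with 1 point per gene coloured by class and a dotted diagonal of equal change. RBM12, RBM10 and RBM4B lie low on both axes, and RBM14-RBM4, at 0.77 and -1.32, lies far off the diagonal.

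Oleic acid moved no member past the test. In oleic acid against vehicle 0 of 57 passed by edgeR (0% of all genes), by DESeq2 and by limma-voom, and 1, RBM24, had an unadjusted p under 0.05 (0.83% of all genes). RBM24 measured 4.88, 3.24 and 3.58 CPM with vehicle, 7.42, 5.31 and 5.68 with oleic acid, 5.98, 4.84 and 5.19 with FAC and 4.83, 4.99 and 4.90 with both. The oleic acid libraries were all above the vehicle libraries, and vehicle library 1 was within the range of both groups with FAC. The change was 0.66 (SE 0.21, edgeR adjusted p = 1.0). The next estimates were RBM14-RBM4, near the limit of counting, at 0.59 (SE 0.54), HNRNPAB at 0.19 (SE 0.24), HNRNPA1L2 at 0.19 (SE 0.27) and HNRNPUL2 at 0.16 (SE 0.16), and the lowest were HNRNPLL at -0.16 (SE 0.10) and RBM27 at -0.15 (SE 0.12). The hnRNP median was 0.05 with 16 of 21 estimates above 0 (49.8% of all genes). Without the 2 divergent libraries it was -0.06 over 22 genes, readthrough gene included, with 2 above 0.

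In FAC-treated cells oleic acid again moved no member past the test. In oleic acid + FAC against FAC 0 of 57 passed by edgeR (0% of all genes), by DESeq2 and by limma-voom, and RBM28 and RBM14-RBM4 had an unadjusted p under 0.05 (4.05% of all genes). RBM28 was at -0.29 (SE 0.12, edgeR adjusted p = 0.707). The highest estimates were RBM43 at 0.46 (SE 0.32), HNRNPA1 at 0.35 (SE 0.21), HNRNPAB at 0.31 (SE 0.24) and HNRNPD at 0.29 (SE 0.21), and the lowest RBM14-RBM4 at -1.50 (SE 0.57), RBM20 at -0.44 (SE 0.27), RBM41 at -0.33 (SE 0.18) and RBM6 at -0.32 (SE 0.16). The hnRNP median was 0.14 with 19 of 21 estimates above 0 (50.4% of all genes). Without the 2 divergent libraries it was 0.00 over 22 genes, readthrough gene included, with 11 above 0. For RBM10 the difference was -0.0043 (SE 0.10) and for RBM12 -0.20 (SE 0.15). With both agents against vehicle, RBM12, RBM4B, RBM28 and RBM10 fell (4 of 57, with 3.07% of all genes called and 2.04% lower), at -1.01 (SE 0.15, edgeR adjusted p = 0.00557), -0.89 (SE 0.22, edgeR adjusted p = 0.0446), -0.60 (SE 0.12, edgeR adjusted p = 0.0218) and -0.60 (SE 0.10, edgeR adjusted p = 0.0115) in that order. Leaving out 1 library, RBM12 passed in all 6 fits, RBM10 in 4 (not without vehicle library 2 or 3), RBM28 in 2 (without library 1 of vehicle or of oleic acid + FAC) and RBM4B in none, with adjusted p up to 0.152. The count was 10 with DESeq2, 12 with the block, 8 with the length trend removed, where RBM28 was not among them, and 2 (RBM12 and RBM10) with only the 6 libraries compared. All genes called in these fits numbered 1248, 1528, 1088 and 162, against 436 in the main fit. With DESeq2-type size factors in edgeR RBM4B missed the threshold.

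Genes that work beside these proteins were taken from lists, whose counts in the averaged comparison stand beside 3.27% of all genes that rose and 5.48% that fell. Of 43 hnRNP-type and related RNA-binding proteins under other symbols, 1 rose and 2 fell with FAC, with a median of -0.01. MBNL2, a muscleblind splicing factor, was at 0.39 (SE 0.09, edgeR adjusted p = 0.0155), the paraspeckle protein SFPQ at -0.55 (SE 0.10, edgeR adjusted p = 0.00535) and RBMXL1 at -0.45 (SE 0.09, edgeR adjusted p = 0.00675). Of 20 SR proteins and CLK or SRPK kinases, which often act against hnRNPs at exons, 4 rose and 7 fell, with a median of -0.19. The rises were led by the kinase genes CLK3 at 1.47 (SE 0.09, edgeR adjusted p = 2.54e-06) and CLK4 at 1.32 (SE 0.10, edgeR adjusted p = 1.31e-05), and the falls by SRSF6 at -1.12 (SE 0.07, edgeR adjusted p = 3.81e-06) and SRSF7 at -0.66 (SE 0.10, edgeR adjusted p = 0.00159). Among partners of RBM15 in the m6A writer, 2 of 6 rose, METTL14 at 0.43 (SE 0.08, edgeR adjusted p = 0.00457) and CBLL1 at 0.29 (SE 0.07, edgeR adjusted p = 0.0238). Of 6 exon junction genes, the partners of RBM8A, none passed, and 1 had an unadjusted p under 0.05 (23.5% of all genes). Of 6 genes of nuclear RNA decay, the setting of RBM7, RBM26 and RBM27, EXOSC10 fell, at -0.30 (SE 0.08, edgeR adjusted p = 0.0358). Of 12 nonsense-mediated decay factors 2 fell, SMG5 at -0.55 (SE 0.11, edgeR adjusted p = 0.0109) and DHX34 at -0.50 (SE 0.09, edgeR adjusted p = 0.00499).

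At the transcript level, RBM10 and RBM25 each had a transcript past the test. The members had 617 transcripts in the transcript table, and 354 were counted well enough to test. In the averaged FAC comparison 2 of them passed (0.299% of all transcripts did). RBM10-206, a protein-coding transcript of 3105 bases and 23 exons, gave 49.9, 50.3 and 48.9 CPM with vehicle and 46.8, 45.0 and 55.9 with oleic acid. With FAC, RBM10-206 gave 31.0, 32.2 and 21.4 CPM, and 26.3, 33.3 and 25.2 with both agents. All 6 FAC libraries were below all others, and the change was -0.81 (SE 0.13, edgeR adjusted p = 0.0366). Its mean share of RBM10 counts was 44.7% with vehicle, 47.4% with oleic acid, 38.3% with FAC and 38.7% with both. RBM25-201, of 6910 bases and 19 exons, gave 42.0, 42.4 and 44.8 CPM with vehicle and 42.9, 46.5 and 32.7 with oleic acid. With FAC, RBM25-201 gave 53.1, 70.1 and 70.3 CPM, and 66.0, 66.5 and 72.0 with both agents. Its FAC libraries were all above the others, and the change was 0.66 (SE 0.11, edgeR adjusted p = 0.0432). The share of RBM25 counts on it was 27.5%, 28.3%, 30.8% and 35.9% in the same order of groups. Neither transcript passed in any of the 12 fits that left out 1 library. Without the 2 divergent libraries, RBM12-202 passed instead.

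In FAC against vehicle no member transcript passed by edgeR or limma-voom (0.00777% of all transcripts did by edgeR), and 31 of 354 had an unadjusted p under 0.05, as did 4.47% of all transcripts. In oleic acid + FAC against oleic acid none passed by either tool (0.0117% did by edgeR), with 35 of 354 at an unadjusted p under 0.05, as were 6.14% of all transcripts. Estimated counts carry an error of assignment among similar transcripts that the files do not record. The transcript IDs matched to the annotation held at least 99.9% of the gene count for 53 members, but 85.4% for RBM15, 77.2% for HNRNPH1 and 50.0% each for HNRNPL and HNRNPR, so the transcript levels of these 4 are partial.

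**Figure D5:**
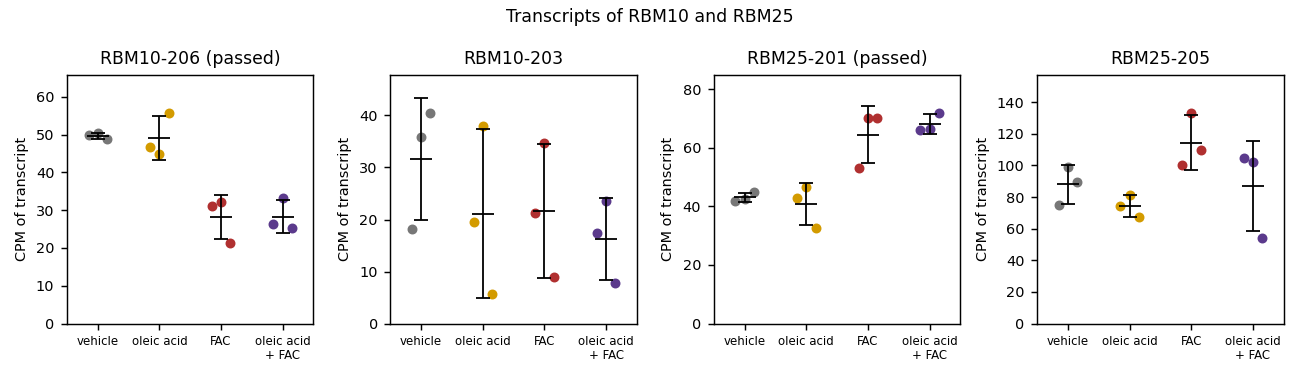
CPM (linear axis from 0) of 2 transcripts each of RBM10 and RBM25, with 1 point per library, groups on the horizontal axis and black bars for the group mean ± SD. RBM10-206 is lower and RBM25-201 higher in all 6 FAC libraries than in the 6 others.

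The balance of transcripts within a gene was tested for 47 members. In the averaged FAC comparison HNRNPC passed (edgeR adjusted p = 0.00137, with 0.954% of genes called), in oleic acid medium HNRNPH1 passed (edgeR adjusted p = 0.0486, with 0.308% called), and without oleic acid none did (lowest edgeR adjusted p = 0.291, with 0.0771% called). On simulated counts this test called mostly unchanged genes, so both are given as values and not read as changes. HNRNPC-222 was at 46.5 CPM in oleic acid + FAC library 3, 3.49 in FAC library 1 and 1.5 in oleic acid + FAC library 2, and 0 in the other 9. HNRNPC-225 was at 0 in all 6 FAC libraries and at up to 3.10 CPM in the others. Without the 2 divergent libraries the HNRNPC adjusted p was 0.14, and with limma-voom it was 0.389.

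Transcripts annotated as targets of nonsense-mediated decay were present for 28 members, retained introns for 32 and other processed transcripts for 35. The share of such transcripts could not differ for HNRNPA3 (retained introns), HNRNPLL and RBM33 (other processed transcripts), at 0 in all 12 libraries, or for HNRNPUL2-BSCL2, whose matched counts were all on decay targets. For none of the other members did it lie higher, or lower, in all 6 FAC libraries than in all 6 others. Where it was 0 in libraries both with and without FAC, as for HNRNPC and HNRNPR (decay targets), no such separation was possible. The same count over all genes is not given, so its absence here is not read as a result. HNRNPA1 had 19.0 ± 0.874% of its counts on decay targets with vehicle, 17.4 ± 2.23% with oleic acid, 17.7 ± 2.02% with FAC and 16.0 ± 3.78% with both (SD, n = 3). For HNRNPU these shares were 24.1 ± 2.20%, 22.6 ± 6.62%, 26.8 ± 2.46% and 18.6 ± 8.31% in the same order. RBM39 had 26.5 ± 4.28%, 24.2 ± 6.87%, 27.0 ± 3.74% and 20.7 ± 10.4% on decay targets, while its total rose with FAC. RBM25 had 13.9 ± 0.511%, 16.7 ± 9.15%, 10.9 ± 1.32% and 17.0 ± 14.9% on retained introns. The spread with both agents was the widest in each of these 4 genes.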

How the data were processed

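RNA-seq of 12 HEK293 libraries (4 groups of 3) was analysed from the deposited gene and transcript tables of estimated counts (expected counts), which hold only whole numbers, so that rounding before the tests changed none. Per the submitters' processing notes, bcl2fastq 2.19, kallisto 0.46.1, sleuth 0.30.0 and GRCh38.p12 were used; the sources used here give no annotation release or strand setting. Transcript IDs were matched to GENCODE 29 (169797 of 188753, holding 97.6% of the counts), which also gave gene positions and overlaps. Promoters came from RefSeq.

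Genes passing filterByExpr (14209) were fitted with edgeR 4.0.16 in R 4.3.3: TMM scaling, quasi-likelihood F tests over all 12 libraries with 1 mean per group, two-sided, with Benjamini-Hochberg adjustment over all genes tested and a threshold of 0.05. The 7 comparisons were the 6 described and the difference between media. Transcripts were fitted in the same way. CPM used TMM-scaled totals, and TPM used count-weighted transcript lengths, for levels within vehicle only. Alternatives were DESeq2 1.42.0 on the same counts, voom from limma 3.58.1, DESeq2-type size factors, no filter, replicate number as a block, removal of a length trend, only the libraries compared, and leaving out libraries. The scripts were tested on simulated data.

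Named genes were 20 chosen members, every member past a test, the 4 highest and 4 lowest per comparison (mean log2 CPM of at least 1), transcripts past a test, up to 4 genes past the test per partner list, and TFRC. The ends of the order of levels, RBM14-RBM4, HNRNPC-222, HNRNPC-225, RBM12-202, CPNE1 and the splicing shares shown were added after their values were seen. The members and lists were chosen with earlier results of these data known.

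Replicate numbers were checked for pairing by the correlation of deviations from group means. It exceeded 0.1 in all 3 same-numbered pairs of oleic acid with oleic acid + FAC (0.459, 0.296 and 0.612) and of FAC with oleic acid + FAC, which were taken as paired, but in 13 of all 18 pairs, and not in all 3 pairs of FAC with vehicle. No 2 libraries of a group agreed within sampling noise. The 3-count floor covers counting error only.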

Additional observations from a re-analysis of the deposited data

How the results depend on the processing

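Over 180 named results and 2652 alternative values, 2516 kept their side of the threshold, 76 no longer passed and 60 newly passed. Where either fit passed, 0 reversed in direction. Changes of direction between fits that both missed the threshold were not counted apart and stand among the 2516. RBM10, RBM12, RBM4B, RBM28, RBM14, RBM38 and RBM25 passed in the averaged FAC comparison under every alternative run. Counts of members past the test moved by more than 1.5 times as follows, with the number of all genes called in brackets. In FAC against vehicle (2 members, 169 genes), DESeq2 called 6 (505) and the replicate block 4 (431). Omission of the 2 divergent libraries gave 6 (672), and removal of the length trend 6 (454). In oleic acid + FAC against oleic acid (4 members, 314 genes), DESeq2 called 8 (775) and removal of the length trend 7 (798). A fit of only the libraries compared called 0 (19) there. In the averaged comparison (11 members, 1244 genes), the replicate block called 19 (2211) and removal of the length trend 21 (2281). With both agents against vehicle (4 members, 436 genes), DESeq2 called 10 (1248) and the replicate block 12 (1528). Removal of the length trend gave 8 (1088) and only the libraries compared 2 (162). In the pairs taken as paired, the block gave 6 members for oleic acid + FAC against oleic acid and 0 for oleic acid + FAC against FAC; in the others the libraries share only a number, though 11 of 12 correlated best with a library of their own number. Leaving out 1 library gave 0 to 2, 0 to 5, 7 to 13 and 1 to 3 members in the same order of comparisons, and 0 in the 3 others.

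Member transcripts past the test in the averaged comparison (2) numbered 1 with the block (RBM4B-201), 1 without the 2 divergent libraries (RBM12-202, also 1 in FAC against vehicle, where none passed before), and 0 to 0 with 1 library left out. The usage call in oleic acid + FAC against oleic acid (1) was 0 with limma-voom, with at least 10 counts in 6 libraries, with the block and without the 2 divergent libraries, and that in the averaged comparison (1) was 0 with at least 10 counts in 6 libraries and without the 2 divergent libraries. With 1 library left out these were 0 to 1 and 0 to 2. Where the count stayed at 1 the gene could change: limma-voom called RBM4 in place of HNRNPC (adjusted p 0.389) in the averaged comparison, and DESeq2-type size factors called HNRNPC in place of HNRNPH1 (adjusted p 0.0516) in oleic acid medium. The cause was not tested. At 14098216 to 18717397 counts per library depth limits mainly RBM14-RBM4, at 0.355 to 2.79 CPM, and the scarce RBM43.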
